A study of Mus musculus with 15 samples.

Results

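Loss of Apoe was examined in microglia of retinas that received a sham injection, without the microbead injection that serves as the study's glaucoma model. The comparison set 4 Apoe-/- sham libraries against 4 wild-type sham libraries, chosen by their labels as 8 of the 15 libraries of the series. All mice were C57BL/6 and 12 weeks old, and each library came from the microglia of 1 retina. Cells were sorted as CD11b+, Ly6c- and Fcrls+, a gate that takes resident microglia by their surface receptor FCRLS and leaves out Ly6C-bearing monocytes, and their RNA was sequenced in bulk. The labels give the genotype of the mutant as Apoe -/- without naming the allele, the promoter or the sex of the mice, and they do not say whether retinas with different numbers came from different mice, so the p-values measure the spread between these retinas. The remaining groups, 3 wild-type microbead and 4 Apoe-/- microbead libraries, carry the same 2 genotypes after a microbead injection and were used here to see the same genotype difference in separate libraries.

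Apolipoprotein E is a secreted lipid carrier that delivers cholesterol and phospholipids between cells through lipoprotein receptors. In the retina and brain it is made by Muller glia, astrocytes and microglia, and microglia that take on the neurodegenerative state known as MGnD or DAM raise it together with genes such as Spp1, Gpnmb, Lgals3 and Itgax. Homeostatic microglia are recognised by P2ry12, Tmem119, Cx3cr1 and Sall1. Presentation of antigen on MHC class II uses the chains H2-Aa, H2-Ab1 and H2-Eb1, the invariant chain CD74 and the loading factors H2-DM and H2-O, whose promoters share a short set of boxes that includes an inverted CCAAT element, the Y box.

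Promoters of Apoe and of class II genes are shown for reference, and none of the class II genes passed the test. Each is the 250 bases before the annotated start in RefSeq (GRCm38.p6), written 5′ to 3′ in the direction of the gene. Apoe, the deleted gene, lies on the minus strand, and its window spans chr7:19699189-19699438, with a GC box in capitals.
Apoe: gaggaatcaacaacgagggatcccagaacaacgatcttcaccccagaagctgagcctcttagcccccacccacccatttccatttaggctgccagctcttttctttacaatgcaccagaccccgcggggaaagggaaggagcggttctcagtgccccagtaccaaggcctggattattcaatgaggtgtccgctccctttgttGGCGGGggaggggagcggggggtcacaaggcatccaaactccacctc
The class II genes shown are from the 8 of 10 tested whose fold changes lay below 0, with the Y box core in capitals. H2-Aa encodes the alpha chain of I-A and its window is chr17:34287824-34288073 on the minus strand, H2-Eb1 encodes the beta chain of I-E with a window at chr17:34305617-34305866 on the plus strand, and H2-DMb2 encodes a chain of the peptide-loading factor with a window at chr17:34144999-34145248 on the plus strand.
H2-Aa: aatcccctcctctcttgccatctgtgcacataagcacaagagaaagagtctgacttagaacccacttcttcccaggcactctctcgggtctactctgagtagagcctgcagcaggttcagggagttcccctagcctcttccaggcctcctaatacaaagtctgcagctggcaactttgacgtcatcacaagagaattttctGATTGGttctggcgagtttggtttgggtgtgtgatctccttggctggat
H2-Eb1: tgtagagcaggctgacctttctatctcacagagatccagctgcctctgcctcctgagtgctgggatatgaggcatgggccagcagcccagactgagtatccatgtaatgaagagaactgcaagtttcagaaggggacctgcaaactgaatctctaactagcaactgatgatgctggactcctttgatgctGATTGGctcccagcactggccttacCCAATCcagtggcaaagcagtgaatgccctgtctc
H2-DMb2: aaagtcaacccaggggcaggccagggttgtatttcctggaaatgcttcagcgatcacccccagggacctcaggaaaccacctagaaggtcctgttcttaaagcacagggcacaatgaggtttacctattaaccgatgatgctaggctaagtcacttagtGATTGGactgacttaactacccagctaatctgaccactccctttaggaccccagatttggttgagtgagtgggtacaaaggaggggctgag
The Y box core was searched as GATTGG and its complement CCAATC. It was found in at least 1 window of 8 of the 8 tested class II genes that have one (for H2-DMa in 1 of 2 windows). Among all 32851 promoter windows of the same length, 14.6% held it. The class II genes with the Y box core include H2-Ob and Rfxank, whose fold changes were above 0. Cd74 and H2-Ab1 had no window to search. The GC box was searched as GGCGGG and CCCGCC, which 32.5% of the windows hold. A match describes the letters of a window and was not tested for binding.

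The 8 sham libraries held 458111 to 714670 reads assigned to genes, on average 621165 in wild-type and 511368 in Apoe-/- libraries. The 12 gene models that hold major satellite repeat sequence took 55.9% to 66.6% of the reads in wild-type and 64.7% to 74.4% in Apoe-/- libraries, and 1775 olfactory, vomeronasal and taste receptor genes took 0.87% to 1.75% and 0.97% to 2.46%. These receptor genes are expressed mainly in sensory epithelia, so their share was followed as a background level. None of 6 library measures passed an exact two-sided permutation test over 70 arrangements (smallest p = 0.0857, adjusted over the family 0.228, where the design allows no p under 0.0286). Apoe-/- sham library 2 stood apart, with the smallest library size after TMM scaling (225227 against 383290 to 574843 in the other Apoe-/- sham libraries) and the largest satellite and receptor shares, and Apoe-/- sham library 4 had a receptor share of 2.38%. The count of called genes, the list medians and the fold changes of Apoe and the 24 genes with the smallest p were therefore also computed without these 2 libraries. The plate position of each library begins with G for every wild-type and with H for every Apoe-/- library, so genotype and that letter cannot be told apart.

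**Figure D1:**
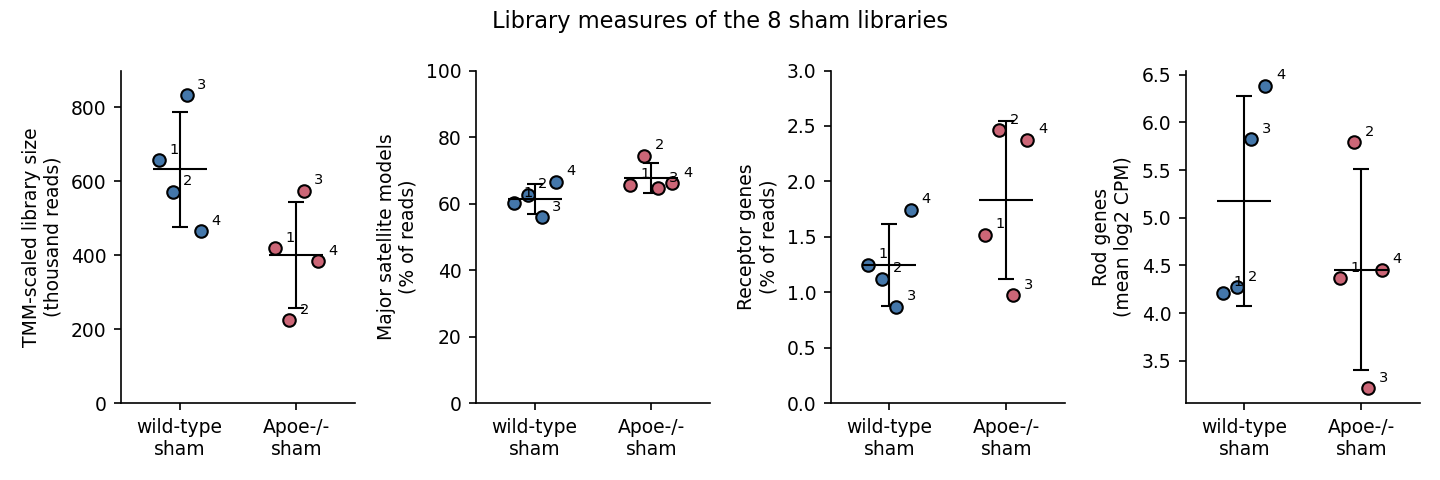
Each point is 1 sham library, numbered by retina, with the group mean and SD as bars, for the TMM-scaled library size, the percent of reads in satellite gene models, the percent of reads in receptor genes and the mean log2 CPM of rod genes. Apoe-/- sham library 2 has the smallest size and the highest satellite share (74.4%), and wild-type libraries 3 and 4 have the highest rod levels.

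Genes abundant in microglia ranked high in the sorted cells of both genotypes. In level per transcript length (TPM, satellite models left out), Cst3 ranked 1 in wild-type sham libraries, and Ctss, Ctsd, C1qb and C1qa stood among the 14 highest. In Apoe-/- sham libraries Cst3 also ranked 1, and these genes ranked 11, 13, 15 and 21. Predicted gene models ranked high too, such as Gm10160 at 2 in both genotypes. Of 37 listed monocyte, neutrophil and lymphocyte genes 33 were under the filter, among them Ly6c2 with 0 to 5 reads and Plac8 with 1 read over all 8 libraries, and 7 had 0 reads in every sham library. The 4 that passed included Csf3r, the receptor for granulocyte colony-stimulating factor, with 36 to 193 reads, and Ighm, an immunoglobulin heavy chain, with 52 to 169 reads. The summed level of this list was 488 to 510 CPM in wild-type and 504 to 588 CPM in Apoe-/- libraries, and its part in the results was not tested. As bulk values, the data cannot separate fewer cells of a kind from less RNA per cell.

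Apoe itself was the gene that separated the genotypes. Its level was 1520, 1407, 1469 and 1434 CPM (reads per library size, scaled by TMM) in the 4 wild-type sham libraries and 0, 4.44, 1.74 and 15.7 CPM in the 4 Apoe-/- sham libraries. The groups did not overlap, and the wild-type values varied little around 1457 ± 49.0 CPM (SD, n = 4). The log2 fold change was -8.09 with a standard error of 0.57 and a 95% interval of -9.28 to -6.90 (edgeR quasi-likelihood test, adjusted p = 6.03e-08).

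The Apoe-/- libraries held 8 Apoe reads in all (0, 1, 1 and 6) against 3698 in the wild type (1001, 805, 1225 and 667). After scaling this was 0.341% of the wild-type level, with an exact 95% interval of 0.147% to 0.673% that covers counting error only. The transcript model that took most wild-type reads (856, 665, 972 and 575 estimated reads) had 0 in every Apoe-/- sham library, and the 6 reads of Apoe-/- library 4 were all placed on a single other model, which held 58 to 103 reads in the wild type. Apoe was the ninth most abundant gene per length in wild-type sham microglia, at 452 ± 90.9 TPM (SD, n = 4), and ranked 5922 in Apoe-/- sham microglia. The gene lies on chromosome 7 (19696109 to 19699188, minus strand, GENCODE M21 on mm10).

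**Figure D2:**
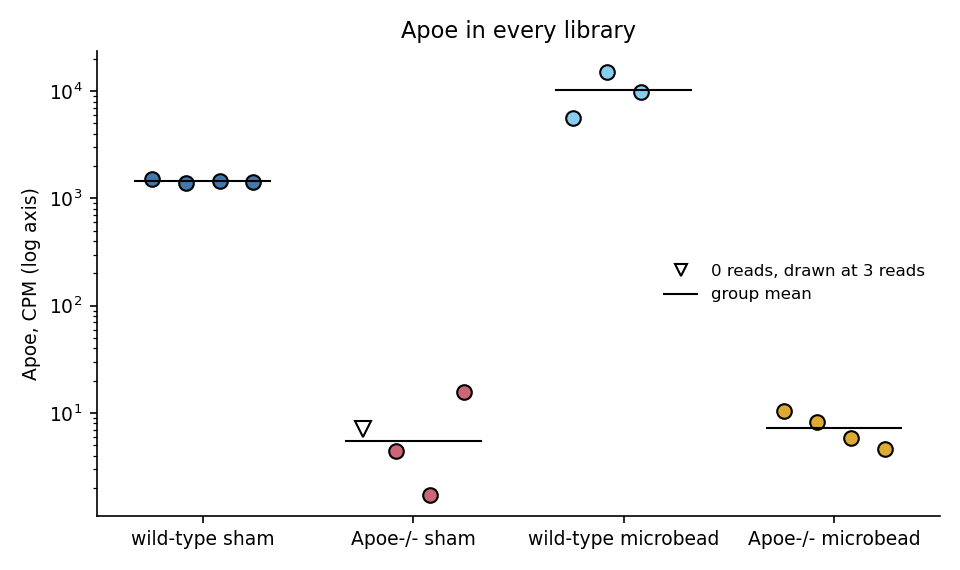
Apoe in CPM on a log axis for each of the 15 libraries in 4 groups, with lines at the group means. The 4 wild-type sham libraries sit between 1407 and 1520 CPM, and the Apoe-/- libraries of both injections lie at or under 15.7 CPM; an open triangle marks the library with 0 reads, drawn at the level of 3 reads.

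No other gene passed the test in the sham comparison. Apoe was 1 of 6521 genes tested (0.0153%) at an adjusted p under 0.05, and the next smallest adjusted p was 0.555. At an unadjusted p under 0.05 there were 371 genes with higher values in Apoe-/- libraries (5.69% of those tested) and 195 with lower values (2.99%). All 4 Apoe-/- values lay above all wild-type values for 78 genes (1.2%) and below them for 156 genes (2.39%). DESeq2 called the same number, 1 gene. Without Apoe-/- libraries 2 and 4 the count was 1 as well, with 264 genes at an unadjusted p under 0.05.

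The precision of these fold changes was set by depth. The median half-width of the 95% interval on the log2 scale was 0.62 for the 622 genes averaging over 100 CPM, 0.78 for the 3614 genes between 20 and 100 CPM and 1.13 for the 2285 genes under 20 CPM. Of the 622 most abundant genes, 348 had an interval lying wholly within 1 log2 unit of 0, and of the 2285 least abundant genes 97 did. A fold change smaller than its half-width had an interval that included 0. A larger one could still go uncalled, because calls used p-values adjusted over all genes tested. Zdhhc16, at a log2 fold change of -1.79, had an adjusted p of 0.555 by edgeR. The median log2 fold change over all genes tested was -0.01, and 48.9% were above 0, values beside which the lists below can be read. On the TPM scale that median was -0.30 with a pseudocount of 1 and -0.44 with 0.1. The lists were chosen with earlier results of these data known, and their counts and medians are descriptions.

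Homeostatic genes kept wide overlap between genotypes. All 41 homeostatic genes of the list were tested and none passed, 34 had fold changes below 0 and 7 above, and their median was -0.23, which stayed below 0 in all 25 alternative settings (from -0.73 to -0.03). P2ry12, the purinergic receptor that guides microglial processes, read 724, 603, 747 and 733 CPM in wild-type and 469, 404, 722 and 558 CPM in Apoe-/- libraries. Apoe-/- library 3 lay within the wild-type range and the other 3 lay below it, and the log2 fold change was -0.38 (95% interval -0.99 to 0.23).

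Tmem119, a microglial membrane protein, averaged 1175 ± 150 CPM in wild-type and 921 ± 211 CPM in Apoe-/- libraries (SD, n = 4 each), a log2 fold change of -0.35 (95% interval -0.84 to 0.14). Cx3cr1, the fractalkine receptor, averaged 1888 ± 143 and 1529 ± 444 CPM, a log2 fold change of -0.30 (-0.84 to 0.23). Sall1, the transcription factor that maintains microglial identity, read 178, 225, 154 and 161 CPM in wild-type and 226, 146, 221 and 167 CPM in Apoe-/- libraries, with the groups intermixed and a log2 fold change of 0.09 (-0.48 to 0.67). For these 3 genes and P2ry12 the intervals lay within 1 log2 unit of 0.

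Fcrls, the gene for the receptor used in the sort, was the homeostatic gene whose Apoe-/- values all lay below the wild-type values, at 99.9, 129, 153 and 136 CPM against 170, 175, 218 and 217 CPM. Its log2 fold change was -0.59 (95% interval -1.30 to 0.13, adjusted p = 0.633 by edgeR). Mef2a, a transcription factor of the MEF2 family, was the list's gene whose Apoe-/- values all lay above, at 236, 266, 216 and 253 CPM against 184, 175, 167 and 204 CPM, with a log2 fold change of 0.41 (-0.05 to 0.87). Groups without overlap were thus 1 of 41 genes in each direction, beside 2.39% of all genes tested below and 1.2% above. Bin1, which encodes a membrane-bending adaptor, had the smallest p of the list (log2 fold change -0.73, SE 0.30, adjusted p = 0.555 by edgeR). Of the 41 genes, 24 had their lowest value of all 8 libraries in Apoe-/- library 2, and the list's median was -0.11 without that library and -0.03 without Apoe-/- libraries 2 and 4.

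Neurodegenerative-state genes did not separate the genotypes, and several that define the state (Spp1, Fabp5, Lgals3 and Gpnmb) were near the floor of detection in sham microglia, while shared members such as Ctsd and Trem2 were abundant. Of 39 listed genes 34 were tested and none passed, 26 were below 0 and 8 above, and their median was -0.15, which was -0.01 without Apoe-/- libraries 2 and 4 and turned to 0.03 with the receptor share as a covariate. Spp1, osteopontin, had 0, 8, 0 and 4 reads in wild-type and 0 in all 4 Apoe-/- libraries. Against 3 reads over the group, the limit that a count of 0 allows, it would be at least 2.54-fold lower. This takes the wild-type reads as exact and leaves out the spread between libraries. The edgeR interval of the Spp1 log2 fold change, -9.39 to 0.25, included 0. Fabp5, a fatty acid carrier, had 2, 0, 3 and 1 reads against 0, at least 1.27-fold lower on the same terms. The Fabp5 interval, -7.19 to 0.097, also included 0. Wild-type libraries 1 and 3 were also at 0 for Spp1, so the groups overlap.

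Lgals3, galectin-3, stood at 0 to 4.30 CPM in wild-type and 0 to 7.14 CPM in Apoe-/- libraries. Cst7, cystatin F, read 3.04, 0, 7.19 and 0 CPM in wild-type and 11.9, 22.2, 10.4 and 7.83 CPM in Apoe-/- libraries, so that the groups did not overlap, with a log2 fold change of 1.92 (SE 1.07, edgeR adjusted p = 0.621). Itgax, the integrin CD11c, had a log2 fold change of 0.23 and Clec7a, the beta-glucan receptor dectin-1, of 0.22, both with overlapping groups. Axl, a receptor for apoptotic cells, had a log2 fold change of -0.27. Lpl, lipoprotein lipase, read 45.6, 75.1, 38.4 and 92.5 CPM in wild-type and 80.9, 151, 60.9 and 99.1 CPM in Apoe-/- libraries, with a log2 fold change of 0.62 (95% interval -0.06 to 1.30).

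MHC class II presentation genes had the lowest median of the immune lists. Of 14 listed genes 10 were tested, 8 of them below 0 and 2 above, with a median log2 fold change of -0.99, and the median stayed below 0 in all 25 alternative settings (-1.38 to -0.76). None passed the test over all genes. At an unadjusted p under 0.05, 5 of the 10 genes had lower values, and 4 of the 10 had all Apoe-/- values below all wild-type values, beside 2.99% and 2.39% of all genes tested.

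Cd74, the invariant chain that escorts class II molecules, read 112, 68.1, 71.9 and 53.8 CPM in wild-type sham libraries and 38.1, 13.3, 6.96 and 41.7 CPM in Apoe-/- sham libraries. Every Apoe-/- value lay below every wild-type value, and the log2 fold change was -1.61 (95% interval -2.58 to -0.64, unadjusted p = 0.00252 and adjusted p = 0.555 by edgeR). H2-Ab1, the I-A beta chain, read 150, 112, 104 and 98.9 CPM against 52.3, 4.44, 26.1 and 88.7 CPM, a log2 fold change of -1.39 (-2.42 to -0.36). H2-Eb1 read 56.2, 36.7, 37.2 and 40.9 CPM against 26.2, 4.44, 0 and 23.5 CPM, a log2 fold change of -1.65 (-2.98 to -0.32). H2-Aa read 54.7, 64.7, 40.8 and 38.7 CPM against 16.6, 4.44, 1.74 and 47.0 CPM, where Apoe-/- library 4 lay inside the wild-type range, and its log2 fold change was -1.50 (-2.76 to -0.24).

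The spread among Apoe-/- libraries was shared by these 4 genes, with libraries 2 and 3 lowest and libraries 1 and 4 nearer to the wild type. Loading genes were mixed. H2-DMb2 and H2-Oa had log2 fold changes of -1.16 and -0.82 with overlapping groups. H2-DMb1 read 65.3, 83.9, 61.1 and 62.4 CPM against 54.7, 17.8, 60.9 and 54.8 CPM, all below the wild type and close to it except in library 2, and H2-DMa and H2-Ob overlapped fully (log2 fold changes -0.22 and 0.11). Without Apoe-/- libraries 2 and 4 the list's median was -0.88. When no filter on low counts was applied, Cd74 (adjusted p = 0.00591), H2-Ab1 (0.0186), H2-Eb1 (0.0326) and H2-Aa (0.0446) passed the threshold in edgeR, the setting that raised the count of called genes from 1 to 41. Border-associated macrophages carry class II themselves. Of their markers, Mrc1 had 0 to 19 reads, Cd163 0 to 8, Pf4 0 to 10, Lyve1 0 to 3 and Colec12 14 to 38 in the 8 libraries. H2-Aa was also low, at 1 to 37 reads. The summed level of the 14 listed genes was 209 to 330 CPM in wild-type and 268 to 402 CPM in Apoe-/- libraries. In mean log2 CPM of the 6 tested markers, Apoe-/- library 4 stood at 5.44 against 4.54 to 4.68 in the other Apoe-/- libraries. It also held the highest Apoe-/- values of Cd74, H2-Aa and H2-Ab1, but not of H2-Eb1. The part of such macrophages in the class II values was not tested.

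**Figure D3:**
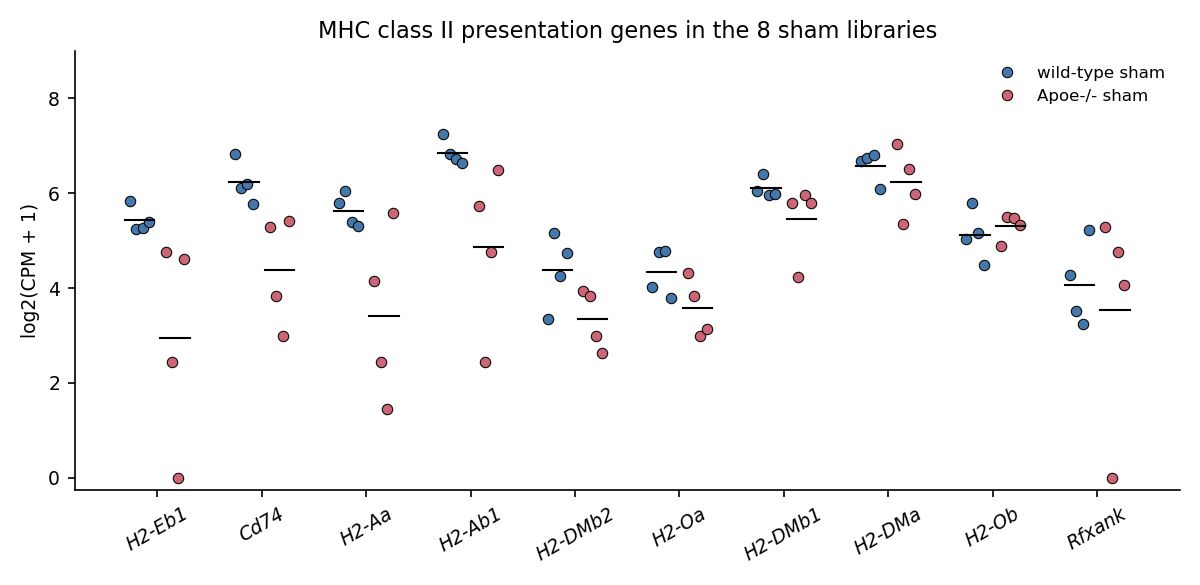
The 10 tested class II presentation genes in log2(CPM + 1), with 4 wild-type sham and 4 Apoe-/- sham libraries per gene and a line at each group's mean. The Apoe-/- points of Cd74, H2-Eb1 and H2-Ab1 all lie below the wild-type points, whereas those of H2-DMa, H2-Ob and Rfxank overlap them.

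Class I genes were nearer to 0: 17 of 24 were negative with a median of -0.08, which turned positive in 3 of 25 settings. B2m, the class I light chain, averaged 758 ± 89.8 and 651 ± 118 CPM (SD, n = 4 each), a log2 fold change of -0.22 (95% interval -0.77 to 0.33). H2-K1, a classical heavy chain, had a log2 fold change of -0.42 with overlapping groups. H2-Q7, a non-classical class I gene, was above the wild type in every Apoe-/- library (64.2, 48.8, 38.3 and 39.1 CPM against 36.5, 33.2, 26.4 and 30.1 CPM), with a log2 fold change of 0.59 (SE 0.28), and shares near-identical sequence with its neighbours, so its reads are uncertain. Psmb10, a subunit of the immunoproteasome, had a log2 fold change of -0.70 (SE 0.33).

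Genes of the type I interferon response (28 of 39 tested) had a median log2 fold change of -0.66, with 26 of 28 below 0 and none past the test. The median stayed below 0 in all 25 settings (-1.01 to -0.40). At an unadjusted p under 0.05, 4 of 28 genes had lower values, beside 2.99% of all genes tested. Ifitm3, which restricts viral entry, read 33.4, 40.2, 37.2 and 12.9 CPM in wild-type and 9.52, 13.3, 20.9 and 13.04 CPM in Apoe-/- libraries, a log2 fold change of -1.09 (SE 0.42, edgeR adjusted p = 0.555). Wild-type library 4 lay among the Apoe-/- values.

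Bst2, tetherin, read 51.6, 68.1, 56.4 and 47.3 CPM against 40.4, 22.2, 45.2 and 26.1 CPM, all below the wild type, with a log2 fold change of -0.68 (95% interval -1.39 to 0.02). Ifit3 and Irf7, both induced by interferon, had log2 fold changes of -1.24 and -0.77 with overlapping groups. Wild-type library 3 held the highest value of all 8 libraries for 12 of the 28 genes (Ifit3, 80.3 CPM against 8.60 to 31.4 CPM in the other wild-type libraries). Ddx58, the RNA sensor RIG-I, was the member with all Apoe-/- values above the wild type, at 61.9, 44.4, 47.0 and 75.7 CPM against 41.0, 41.9, 42.0 and 40.9 CPM (log2 fold change 0.47, SE 0.25). Bst2 and Ddx58 were each 1 of 28 genes without overlap in their direction, beside 2.39% (below) and 1.2% (above) of all genes tested.

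Complement and inflammatory genes gave mixed values. Of 12 tested complement genes out of 24 listed, 8 were below 0 (median -0.17, 0.01 without Apoe-/- libraries 2 and 4). C1qa and C1qb, 2 chains of the complement initiator C1q, had log2 fold changes of -0.18 and -0.05, whereas the third chain, C1qc, had -0.90 (unadjusted p = 0.0242, adjusted p = 0.555 by edgeR). C1qc read 542, 928, 621 and 215 CPM in wild-type and 350, 298, 369 and 217 CPM in Apoe-/- libraries, where wild-type library 4 was the lowest of all. C5ar1, the receptor for the fragment C5a, read 75.9, 43.7, 65.9 and 66.7 CPM against 14.3, 4.44, 45.2 and 28.7 CPM, a log2 fold change of -1.30 (95% interval -2.26 to -0.35). C3 was under the filter, with 2 reads in wild-type and 6 in Apoe-/- libraries.

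Of 22 tested cytokine, chemokine and NF-kB genes (36 listed) 15 were below 0 (median -0.19, or -0.46 without Apoe-/- libraries 2 and 4 and 0.20 with the satellite share as a covariate). Ccl12, a monocyte-attracting chemokine, read 54.7, 57.7, 164 and 19.4 CPM against 16.6, 8.88, 22.6 and 49.6 CPM, a log2 fold change of -1.58 (SE 0.60, edgeR adjusted p = 0.555). Tnf had a log2 fold change of -1.07, Ccl3 of -0.22 and Ccl4 of -0.09, all with overlapping groups, and Il1b had 6 reads in wild-type and 7 in Apoe-/- libraries. Of 21 tested Toll-like receptor genes and adaptors (26 listed) 12 were below 0 (median -0.05, turning to 0.01 without Apoe-/- library 1), among them Cd14, a co-receptor for bacterial lipopolysaccharide (-0.49), while Tlr1 had the highest value (0.76).

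Lipid genes, whose products handle the cargo of apolipoprotein E, did not separate the genotypes. Cholesterol synthesis and sterol sensing genes split evenly, with 8 of 16 tested genes (32 listed) above 0 and 8 below, and their median of 0.01 changed sign in 19 of 25 settings. Hmgcs1, an early enzyme of sterol synthesis, had a log2 fold change of 0.33 and Srebf1, a sterol-regulated transcription factor, of 0.20. Sqle, the squalene epoxidase, had 21 reads in wild-type and 19 in Apoe-/- libraries and was under the filter. Npc1, which exports cholesterol from lysosomes, read 80.5, 59.4, 69.5 and 60.2 CPM in wild-type and 26.2, 53.3, 57.4 and 28.7 CPM in Apoe-/- libraries, all below the wild type, with a log2 fold change of -0.71 (95% interval -1.32 to -0.10, adjusted p = 0.555 by edgeR).

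Of 19 tested genes of lipid efflux, LXR and lipid droplets (32 listed) 11 were above 0, with a median of 0.04 that changed sign in 8 of 25 settings. Abca1 and Abcg1, the exporters that load cholesterol onto apolipoproteins, read 27.6 to 60.2 and 14.4 to 23.7 CPM in wild-type and 36.5 to 66.6 and 8.88 to 44.4 CPM in Apoe-/- libraries, with log2 fold changes of 0.34 (SE 0.38) and 0.47 (SE 0.54). Nr1h2, the sterol-sensing receptor LXR beta, had the smallest p of the list (log2 fold change -0.81, SE 0.38, adjusted p = 0.573 by edgeR). Arl4c, a small GTPase induced by LXR, had the smallest p among the higher members (0.68, SE 0.38), and Plin2, a lipid droplet coat protein, had a log2 fold change of 0.26.

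Of 14 tested lipoprotein and scavenger receptor genes (24 listed) 9 were below 0 (median -0.06, changing sign in 4 of 25 settings). Lrp1, a main receptor for apolipoprotein E, averaged 328 ± 65.5 CPM in wild-type and 317 ± 104 CPM in Apoe-/- libraries (SD, n = 4 each), a log2 fold change of -0.04 (95% interval -0.61 to 0.53). Lrp5, a Wnt co-receptor of the lipoprotein receptor family, read 30.4, 19.2, 21.6 and 17.2 CPM against 47.6, 53.3, 27.8 and 33.9 CPM (log2 fold change 0.82, SE 0.35), with library 3 overlapping the wild type.

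Trem2, a lipid-sensing receptor of microglia, averaged 483 ± 72.0 and 475 ± 101 CPM, a log2 fold change of -0.02 (-0.50 to 0.46). Its adaptor Tyrobp had a log2 fold change of 0.09, and Syk, the kinase they recruit, of 0.42. The 23 tested genes of this signalling path (26 listed) had a median of -0.08, with the sign changing in 4 of 25 settings.

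Lysosomal genes lay slightly below 0 as a list, with 30 of 37 tested genes (39 listed) negative and a median of -0.19, which moved to 0.01 without Apoe-/- libraries 2 and 4 and to 0.05 with the receptor share as a covariate. The lowest of all 8 values was in Apoe-/- library 2 for 21 of the 37. Ctsd, cathepsin D, averaged 3830 ± 361 and 3771 ± 1101 CPM (SD, n = 4 each), a log2 fold change of -0.02 (95% interval -0.56 to 0.52). Ctsb, cathepsin B, had a log2 fold change of -0.29, Lamp1, a lysosomal membrane protein, of -0.21, and Lgmn, the asparagine protease legumain, of -0.43, the smallest p of the list. The intervals of 33 of the 37 genes lay within 1 log2 unit of 0.

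Among 17 tested Fc receptor and TAM phagocytic receptor genes (21 listed) 13 were below 0 (median -0.08, turning to 0.06 without Apoe-/- libraries 2 and 4). Gas6, the bridging ligand that links dying cells to the receptors AXL and MERTK, read 94.2, 94.3, 70.7 and 79.6 CPM in wild-type and 38.1, 40.0, 50.5 and 62.6 CPM in Apoe-/- libraries. The groups did not overlap, and the log2 fold change was -0.81 (95% interval -1.39 to -0.23, unadjusted p = 0.00893 and adjusted p = 0.555 by edgeR). Of 16 tested TGF-beta signalling genes (25 listed) 12 were below 0 (median -0.13, or -0.06 without Apoe-/- libraries 2 and 4), with Nrros, which presents latent TGF-beta on microglia, at -0.50.

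Glycolysis genes lay slightly below 0, and the respiratory and ribosomal lists were nearer to 0. Of 20 tested glycolysis and hypoxia genes (30 listed) 17 were below 0 (median -0.19), and P4ha1, a prolyl hydroxylase of collagen, had all Apoe-/- values below the wild type (50.0, 44.4, 41.8 and 33.9 CPM against 63.8, 75.1, 64.7 and 55.9 CPM). Of 61 tested nuclear genes of oxidative phosphorylation (72 listed) 38 were below 0 (median -0.07, or -0.02 without Apoe-/- libraries 2 and 4). Of these, Atp5g2, a subunit of the ATP synthase ring, was near the floor of detection, at 4.56, 12.2, 9.59 and 34.4 CPM in wild-type and 2.38, 0, 0 and 0 CPM in Apoe-/- libraries. Of 79 cytosolic ribosomal protein genes, all tested, 45 were above 0 (median 0.04, changing sign in 11 of 25 settings and 0.16 without Apoe-/- libraries 2 and 4). Antioxidant genes had a median of -0.11 with 13 of 21 tested genes (28 listed) below 0 (0.08 without Apoe-/- libraries 2 and 4), and iron genes had a median of -0.18 with 6 of 11 tested genes (17 listed) below 0 (0.07 with transcripts under 3 times the receptor background left out). The 12 tested mitochondrially encoded genes (13 listed) split 6 and 6. mt-Nd4l, a subunit of respiratory complex I, had 26, 38, 0 and 0 reads in wild-type and 0 in all Apoe-/- sham libraries. It would be at least 13.5-fold lower against 3 reads over the group, with the wild-type reads taken as exact. Its wild-type signal came from 2 libraries, and with the rod level as a covariate it was called beside Apoe (adjusted p = 0.0108 by edgeR).

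**Figure D4:**
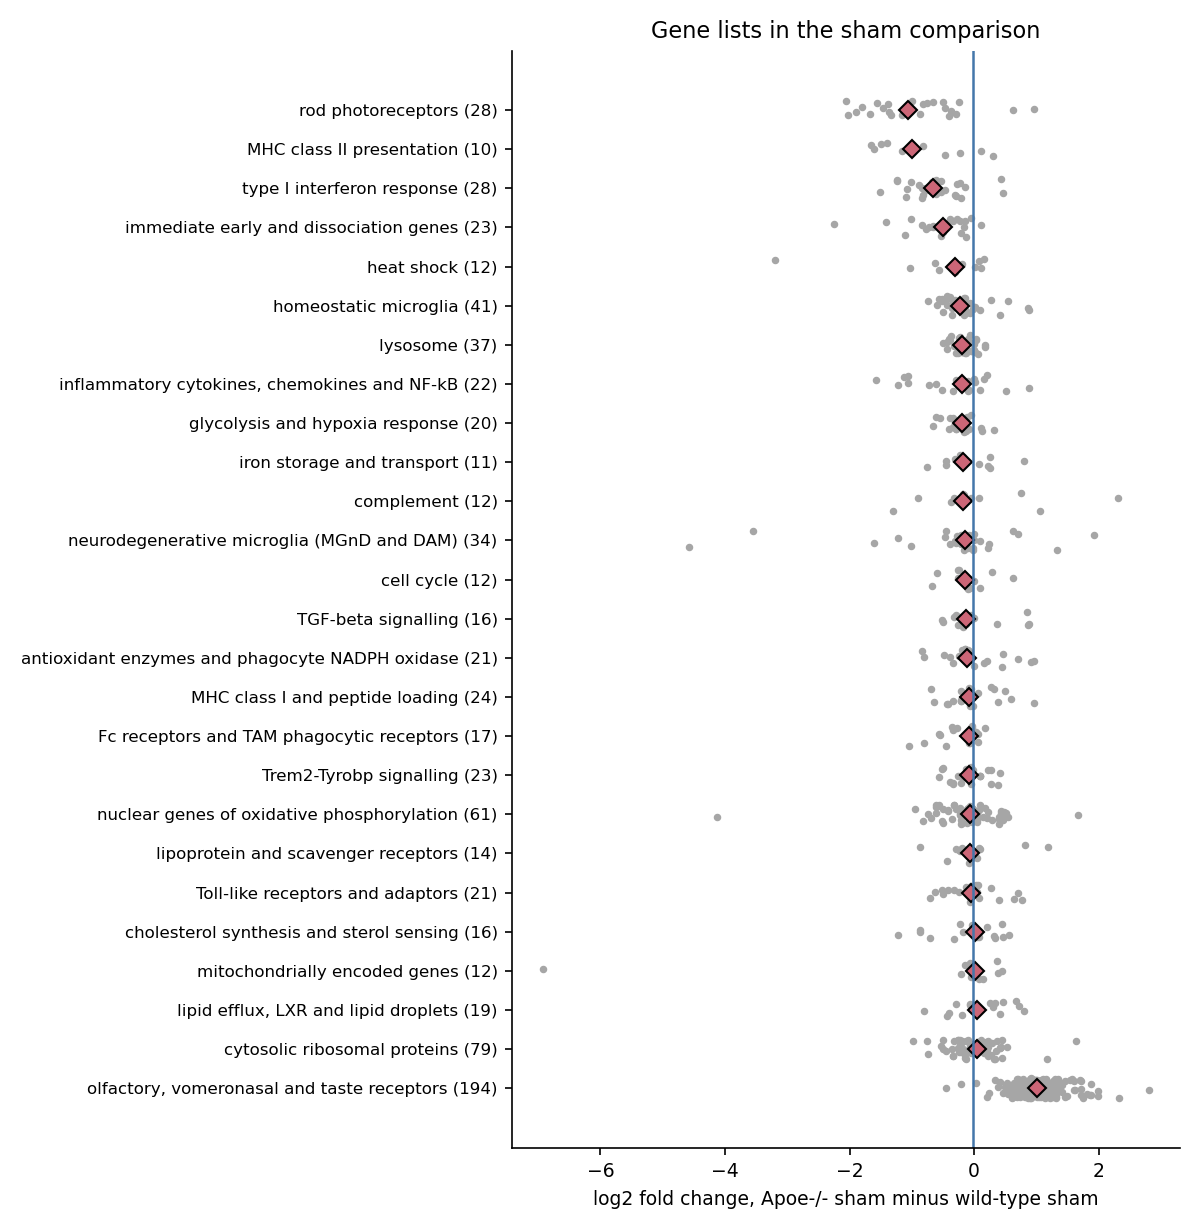
Log2 fold changes of the members (grey points) of each list with at least 10 tested genes, with the list's median as a red diamond, the number tested in brackets and a blue line at the median of all 6521 genes (-0.01). Rod, class II and interferon genes have the lowest medians (-1.06, -0.99 and -0.66), and receptor genes the highest (1.02).

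The 24 further genes with the smallest p among those averaging at least 20 CPM in either group all had an adjusted p of 0.555, so they are given as values. They comprised 17 genes with higher and 7 with lower values in Apoe-/- libraries. Apoe-/- library 2 held the highest of the 4 Apoe-/- values for 13 of the 17 higher genes, 3 were vomeronasal receptor genes and 5 were predicted gene models.

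Zdhhc16, which encodes a palmitoyltransferase, had the smallest p (unadjusted p = 0.000928 by edgeR). It read 33.4, 31.4, 32.4 and 17.2 CPM in wild-type and 9.52, 8.88, 5.22 and 10.4 CPM in Apoe-/- libraries, with no overlap and a log2 fold change of -1.79 (SE 0.46). Ttc13 (log2 fold change -1.21), Tbl3, a protein of the ribosome-assembly machinery (-1.53), Slc25a46, a mitochondrial outer membrane protein (-1.56), and Stard8 (-1.90) also had Apoe-/- values wholly below the wild type. Slc25a46 was tight in the wild type, at 22.8, 22.7, 21.6 and 21.5 CPM against 4.76, 4.44, 8.70 and 10.4 CPM. Ifi209, an interferon-inducible gene of the PYHIN family, read 30.4, 26.2, 37.2 and 8.60 CPM against 4.76, 8.88, 5.22 and 2.61 CPM, a log2 fold change of -2.33 (SE 0.66), with wild-type library 4 inside the Apoe-/- range. Cd74, described above, was the remaining lower gene.

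Among the higher genes, Mid1, which encodes a microtubule-bound ubiquitin ligase, read 41.0, 71.6, 39.6 and 64.5 CPM in wild-type and 97.5, 115, 85.2 and 128 CPM in Apoe-/- libraries, with no overlap and a log2 fold change of 0.98 (SE 0.29). Msrb2, a mitochondrial methionine sulfoxide reductase, read 9.11, 10.5, 16.8 and 10.8 CPM against 33.3, 22.2, 26.1 and 26.1 CPM, again with no overlap, and had a log2 fold change of 1.17 (SE 0.35). Chordc1, a partner of the chaperone HSP90, had a log2 fold change of 1.09, and Nemf, a factor of ribosome quality control, of 1.04, both with overlapping groups. Chodl (2.03) and Brpf3 (1.61) had Apoe-/- values wholly above the wild type. Gm5373 (1.87), Gm18310 (2.10), Exd1 (2.34), Gm47103 (2.48), Zfp964 (1.73), Gm47356 (1.63) and Gm18517 (1.43) overlapped between genotypes, as did the receptor genes Vmn1r174 (2.81) and Vmn1r236 (1.12), while those of Vmn1r9 (2.33) did not.

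Receptor genes lay almost wholly on the higher side. The filter kept 194 of 1772 listed genes for smell, pheromone and taste receptors, and a gene near the floor could pass it through the libraries where it was high. Of the 194, 192 were above 0, with a median log2 fold change of 1.02, and 78 were at an unadjusted p under 0.05 with higher values, beside 5.69% of all genes tested. They were 78 of the 371 genes at that level and 2.98% of all genes tested, and predicted gene models made up 24.5% and 4.52%. Apoe-/- library 2 held the highest Apoe-/- value for 79.8% of the 371 genes and for 31.5% of all genes tested. Without Apoe-/- libraries 2 and 4 the receptor median was 0.10, and the summed receptor level was 7450 to 21300 CPM in wild-type and 10500 to 50100 CPM in Apoe-/- libraries. The part of this background in the higher values of other genes was not tested.

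Rod photoreceptor transcripts lay mostly on the lower side, with no call. Of 28 tested rod genes (35 listed) 26 were below 0, with a median of -1.06 that stayed below 0 in all 25 settings (-2.02 to -0.17), none passed the test, and 6 of 28 were at an unadjusted p under 0.05 with lower values, beside 2.99% of all genes tested. Aipl1, a chaperone of the rod phosphodiesterase, read 6.08, 10.5, 26.4 and 45.2 CPM in wild-type and 4.76, 8.88, 3.48 and 5.22 CPM in Apoe-/- libraries, so wild-type libraries 3 and 4 were high and library 1 lay within the Apoe-/- range (log2 fold change -2.03, SE 0.79, edgeR adjusted p = 0.555). Wild-type library 4 held the highest of 8 values for 20 of the 28 genes. Summed over the 35 listed rod genes, the level was 911 to 3910 CPM in wild-type and 324 to 2470 CPM in Apoe-/- libraries. In the microbead libraries all 28 had values above 0 for the same genotype difference (median 1.59).

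Markers of other retinal cells were too low for a list. Of 19 Muller glia and astrocyte genes 2 passed the filter, of which Glul, glutamine synthetase, had a log2 fold change of -0.47 and Slc1a3, a glutamate transporter, of 0.88 (SE 0.42), and 1 of 32 genes of inner retinal neurons, 1 of 13 cone genes and 2 of 26 vascular and pigment epithelium genes passed. Immediate early genes, which respond to tissue dissociation, had 22 of 23 tested members (32 listed) below 0 (median -0.49). That median was -0.70 without Apoe-/- library 2 and -1.68 without Apoe-/- libraries 2 and 4, and it turned to 0.38 with the satellite share and to 0.04 with the rod level as a covariate. Their summed level ran from 585 to 5030 CPM in wild-type and from 507 to 3030 CPM in Apoe-/- libraries, with wild-type library 2 and Apoe-/- library 1 lowest in mean log2 level. Y-linked genes varied between libraries. Ddx3y had 1, 1, 0 and 1 reads in wild-type and 2, 5, 1 and 2 in Apoe-/- libraries, Eif2s3y had 0, 1, 1 and 0 against 11, 5, 1 and 2, and both were under the filter. Kdm5d read 27.3, 28.0, 19.2 and 64.5 CPM in wild-type and 88.02, 169, 38.3 and 144 CPM in Apoe-/- libraries (log2 fold change 1.65, SE 0.50, adjusted p = 0.555 by edgeR), and the median of Kdm5d and Uty was 1.76, or 0.16 when Apoe-/- libraries 2 and 4 were left out. Cell cycle genes (12 of 31 tested, median -0.14, or -0.26 without Apoe-/- libraries 2 and 4) and heat shock genes (12 of 19 tested, median -0.31, or 0.07 with the satellite share as a covariate) completed the lists.

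Genes next to Apoe on chromosome 7 were examined because a targeted allele can carry flanking sequence from the strain it was made in. Of 13 tested genes within 1 Mb, 6 were above and 7 below 0 with a median of -0.25, and none passed the test. Relb, an NF-kB subunit, had the smallest p, at 28.9, 38.4, 21.6 and 12.9 CPM in wild-type and 14.3, 13.3, 8.70 and 13.04 CPM in Apoe-/- libraries (log2 fold change -1.08, SE 0.43, adjusted p = 0.555 by edgeR). Clptm1 (-0.82), Tomm40 (-0.54) and Nectin2 (0.59) overlapped between genotypes. Apoc4, another apolipoprotein gene of the cluster, read 10.6, 26.2, 14.4 and 10.8 CPM against 28.6, 35.5, 13.9 and 28.7 CPM (log2 fold change 0.72, SE 0.43), and Apoc1 had 1 read in each genotype.

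The same genotype difference was measured in the 7 microbead libraries, which share no library with the sham comparison. There 3 of 6521 genes (0.046%) passed the test, Apoe, Lgals3 and Spp1, and DESeq2 called 23. Apoe read 5640, 15120 and 9770 CPM in wild-type microbead and 4.67 to 10.4 CPM in Apoe-/- microbead libraries (log2 fold change -10.45, SE 0.59). No gene passed the test of the difference between the injections (smallest adjusted p = 1 by edgeR, 221 genes at an unadjusted p under 0.05, 0 called by DESeq2). Of the 24 genes, 18 had the same sign in the microbead libraries (14 higher and 4 lower), where 59.9% of all genes tested did. Background receptor genes were on the higher side there as well, with 190 of 194 above 0 and a median of 0.92. The part of this background in the shared signs was not tested.

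Most class II genes had negative values in both settings. Cd74 read 146, 504 and 232 CPM in wild-type microbead and 104, 82.0, 75.8 and 93.3 CPM in Apoe-/- microbead libraries, with no overlap and a log2 fold change of -1.73 (unadjusted p = 0.000575, adjusted p = 0.268 by edgeR). H2-Ab1 (-2.08), H2-Eb1 (-2.13) and H2-Aa (-2.20) also had microbead groups without overlap, and the difference between injections had unadjusted p-values of 0.861 for Cd74, 0.326 for H2-Ab1, 0.588 for H2-Eb1 and 0.408 for H2-Aa, each adjusted to 1. Over the list, 7 of 10 genes were below 0 in microbead libraries (median -0.66), and H2-DMb2 stood at -1.16 in sham and 0.20 in microbead libraries.

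For other lists the values of both injections stand side by side, with no test of a list. Interferon genes had a median of -0.66 in sham and -0.19 in microbead libraries, and neurodegenerative-state genes had -0.15 and -0.73, with 17 of 34 at an unadjusted p under 0.05 and lower values in microbead libraries, beside 2.94% of all genes tested. Homeostatic genes had medians of -0.23 and 0.03. Zdhhc16 (-1.79 and 0.12), Stard8 (-1.90 and 0.31), Msrb2 (1.17 and -0.41), Nemf (1.04 and -0.31) and Gas6 (-0.81 and 0.21) had opposite signs, with unadjusted p-values for the difference of 0.00631, 0.00658, 0.00586, 0.00824 and 0.0184 that did not pass adjustment.

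**Figure D5:**
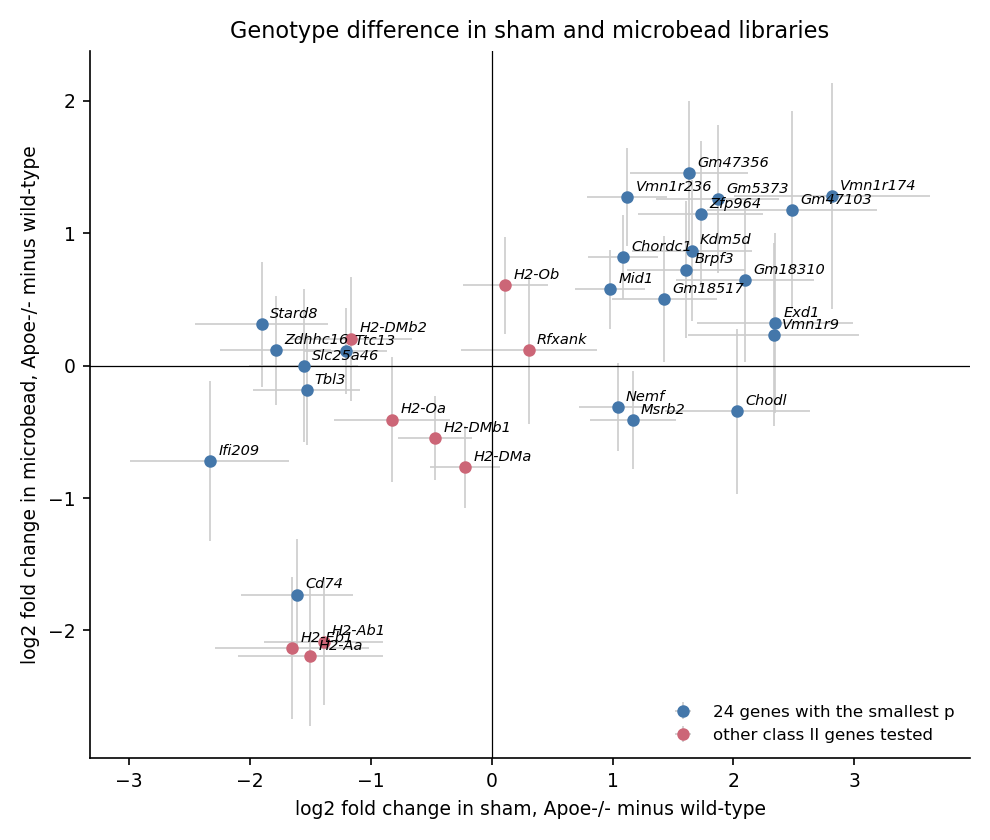
Log2 fold change of Apoe-/- against wild-type in sham (horizontal) and microbead libraries (vertical), with SE bars, for the 24 genes with the smallest p in sham (blue) and the remaining tested class II genes (red). Cd74, H2-Ab1, H2-Eb1 and H2-Aa lie together at -1.39 to -1.65 in sham and -1.73 to -2.20 in microbead libraries, and 14 of the 17 genes higher in sham are also above 0 in microbead libraries.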

How the data were processed

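Salmon 1.4.0 was run by the authors on each library, per the submitters' processing notes, which also name mm10, R 4.0.3 and DESeq2 1.30.1, and the deposited files hold its estimated counts (expected counts) and TPM values per transcript. Here the estimated counts were summed per gene of GENCODE M21 and rounded, and TPM values were summed for levels per length. Reads on transcripts with no gene made up 0.217% to 0.354%. Of the genes in the authors' list, 34358 of 35735 were matched. The deposited tables hold 0 per-sample columns that were left unused.

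The genotype difference was fitted with edgeR 4.0.16 (R 4.3.3) by the quasi-likelihood test with TMM scaling and filterByExpr over all 15 libraries in 4 groups, with Benjamini-Hochberg adjustment over 6521 genes and a threshold of 0.05. DESeq2 1.42.0 and limma 3.58.1 (log2 of TPM plus 1 or 0.1, and voom) were alternatives. CPM values use the TMM library size. Library measures were compared by exact permutation tests in SciPy 1.17.1, and the fit was tested on simulated data. The 4 sham libraries of each genotype held 458111 to 714670 reads. A count of 0 allows 4.2 to 6.55 CPM when 3 reads are set against this total, without TMM scaling. By the TMM library size used for the other CPM values, 3 reads were 3.6 CPM in wild-type sham library 3, which had the largest size. In Apoe-/- sham library 2, which had the smallest, 3 reads were 13.3 CPM. Intervals from reads cover counting error only.

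Named were Apoe, the genes with the smallest p averaging at least 20 CPM in either sham group until 25 were named, in each list the members with the smallest p in each direction, fixed anchor genes and the tested genes within 1 Mb of Apoe. Other list members (such as H2-Ab1, H2-Eb1, Bst2, C1qb, C1qc, Mrc1 and Tyrobp) were chosen after their values were seen. Results of a few genes are not reported here, 1 of them among the libraries that stood apart. The comparison and the gene lists were chosen with earlier results of these data known. Alternatives were other scalings, filters, tools and covariates, a replicate block, transcript length offsets, the sham libraries alone and each library left out, and, chosen after seeing the data, the receptor share as a covariate, only genes over 3 times the receptor background, and Apoe-/- sham libraries 2 and 4 left out together.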

Additional observations from a re-analysis of the deposited data

Results flagged for a closer look

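In 11 of 206 groups of 4 sham libraries, 1 library lay far from the other 3 by Dixon's ratio, where chance gives about 1 group in 20.

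Wild-type library 4 was low for Zdhhc16, at 17.21 CPM against 31.45 to 33.41 in the other wild-type libraries. It was high for Gpnmb, at 23.66 CPM against 0 to 1.747, and low in the mean log2 CPM of Trem2-Tyrobp signalling genes, at 6.31 against 6.57 to 6.58. Wild-type library 2 was low for P2ry12, at 602.8 CPM against 724.4 to 746.9, and wild-type library 1 was high for Gpr34, a homeostatic receptor, at 446.5 CPM against 308.1 to 326.9. Wild-type library 3 was high in the mean log2 CPM of cholesterol synthesis genes, at 5.03 against 4.62 to 4.63.

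Among Apoe-/- libraries, library 2 had 74.43% of its reads in satellite gene models against 64.71% to 66.23% in the others, and a mean log2 CPM of 5.58 for the endothelial, pericyte and pigment epithelium genes against 3.96 to 4.1. Library 4 had a mean log2 CPM of 5.44 for border macrophage genes against 4.54 to 4.68, and 33.92 CPM of Hmgcs1 against 11.9 to 13.92.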

How the results depend on the processing

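Apoe was called alone in the sham comparison under every alternative except 2. With no filter on low counts 41 genes were called, 20 of them higher, over 28112 genes tested; of the 40 beyond Apoe, 12 were outside the filtered genes and 9 had over 90% of their sham reads in 1 library. The 41 include mt-Nd4l, Atp5g2, Ier2, Hspa1a, Ccl12, Rps27 and 4 class II genes. With the rod level as a covariate 2 genes were called. The count was 1 with each sham library left out in turn (lowest 1, highest 1). With the replicate number as a replicate block it was 1. Same-numbered wild-type and Apoe-/- sham libraries correlated at 0.014, -0.056, 0.223 and 0.12 in their deviations, and differently numbered ones at -0.322 to 0.259. So few values cannot decide whether the numbers pair the samples, and sham was not compared with microbead libraries in this way. Of 599 values of Apoe and the 24 genes with the smallest p under these settings none lost a call or reversed, and 4 (Ifi209, Gm47103, Cd74 and Gm47356) passed the threshold with no filter. Of 34 lists, 11 kept the sign of their median in all 25 settings and 23 did not.

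In microbead libraries DESeq2 called 23 genes against 3, and leaving out 1 library gave 1 to 7 genes: 1 without wild-type library 2 or Apoe-/- library 1, 3 or 4, and 7 without Apoe-/- library 2.

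The genotype difference in gene reads ran from -145737.5 (without Apoe-/- library 3, p = 0.0286, exact permutation) to -78628 with 1 library left out, and that in satellite share from 4.23 to 8.22 percentage points (without wild-type library 4, p = 0.0286, exact permutation). The number of genes with an unadjusted p under 0.05 was 312 without Apoe-/- library 2, 914 without Apoe-/- library 3, and 224 with the satellite share and 225 with the receptor share as a covariate, against 566; the cause was not tested.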
